A study of Homo sapiens with 2 samples.

Results

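The genes described here are 32 genes of sterol and fatty acid synthesis, out of 49675 genes with a transcript listed in RNA-seq of MDA-MB-231, a cell line from a triple-negative human breast cancer. The genes were chosen by name from known pathways, and the list was selected on the FPKM values of this same contrast, in which 1 of its genes, the desaturase SCD, had stood out, so all values between the libraries below are a description and no test was made on them. One library came from cells with knockdown of RBMS1, an RNA-binding protein, and 1 library came from control cells of the same line. Per the study's methods, stable lines were made by infection with lentiviral shRNA in the pLKO.1 vector, the empty vector served as the control, infected cells were kept in puromycin, and the MDA-MB-231 cells of both groups grew in Leibovitz medium with serum and without added carbon dioxide. With 1 library per group there is no replicate check, and the difference between the libraries cannot be told apart from a difference between any pair of cultures. The level of a gene is its FPKM, the abundance per kilobase of transcript scaled to the fragments of the library, and each level comes with the interval that Cufflinks gives for the uncertainty within that library.

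RBMS1 stood at 24.1 FPKM (interval 21.7 to 27.7) in the control library, and the knockdown library had 3.76 FPKM (3.12 to 5.39), which is 15.6% of the control level. The labels of the libraries therefore go with the level of the targeted gene, at a log2 ratio of -2.40 on its counted transcripts, and the ratio was -0.20 with uncounted assembled fragments within its span added. Of the receptor genes by which a triple-negative tumour is defined, ESR1 was at 0.0996 FPKM in the knockdown and 0.0286 FPKM in the control library, PGR was at 0.0017 and 0.0037 FPKM, and ERBB2 was at 7.496 and 7.005 FPKM. VIM, the mesenchymal filament protein vimentin, was at 496 and 563 FPKM, and KRT18, an epithelial keratin, was at 162 and 190 FPKM. The estrogen and progesterone receptor genes were thus near 0 in both libraries, while ERBB2 and both filament genes were present. In bulk RNA, a higher level in every cell and a larger share of cells with the transcript cannot be told apart.

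Cholesterol is built from acetyl-CoA through the mevalonate pathway, which ends in isoprenoid units, and through the squalene and sterol steps that follow. Fatty acids are built from the same acetyl-CoA, which ACLY releases from citrate, ACACA carboxylates and FASN condenses into palmitate, before elongases lengthen the chain and desaturases place double bonds in it. Both branches are known targets of the SREBP transcription factors, which SCAP carries out of the endoplasmic reticulum when sterols are low and which INSIG proteins hold back when sterols are plentiful. SREBPs bind sterol regulatory elements in promoters and are known to act there together with NF-Y, which binds the CCAAT box, and Sp1, which binds GC boxes.

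Of the 32 genes, 30 had a mean level of at least 1 FPKM over both libraries and entered the counts, while ACAT2 and TM7SF2 were listed at 0 in both. Of these 30 genes, 26 were higher and 4 were lower in the knockdown library, where 52.7% of all 11223 genes with such a level were higher. Their median log2 ratio of knockdown over control, computed with 1 FPKM added to each value, was 0.12, against 0.02 over all genes. A log2 ratio computed this way understates the change of genes with low levels. The within-library intervals lay apart for 9 of the 30 genes, all of them higher in the knockdown library, where 13.2% of all genes lay apart with a higher level and 11.3% with a lower level. At least 2-fold higher were 2 genes, SCD and FADS2, where 2.92% of all genes were, and no member was at least 2-fold lower, where 2.74% of all genes were. FADS2 was listed at 0 in the control library, and SCD was thus the only member above 0 in both libraries to pass 2-fold. SCD is the gene on which the list was selected and FADS2 passed the filter only through the knockdown library, and of the 28 counted members without them 24 were higher, 7 had intervals apart, 0 were 2-fold higher and the median was 0.12. Because the list was selected on this contrast, nothing is read from these counts against the shares over all genes. Summed over all 32 genes, the level was 505 FPKM in the knockdown and 412 FPKM in the control library, and 459 and 405 FPKM with SCD and FADS2 left out.

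**Figure D1:**
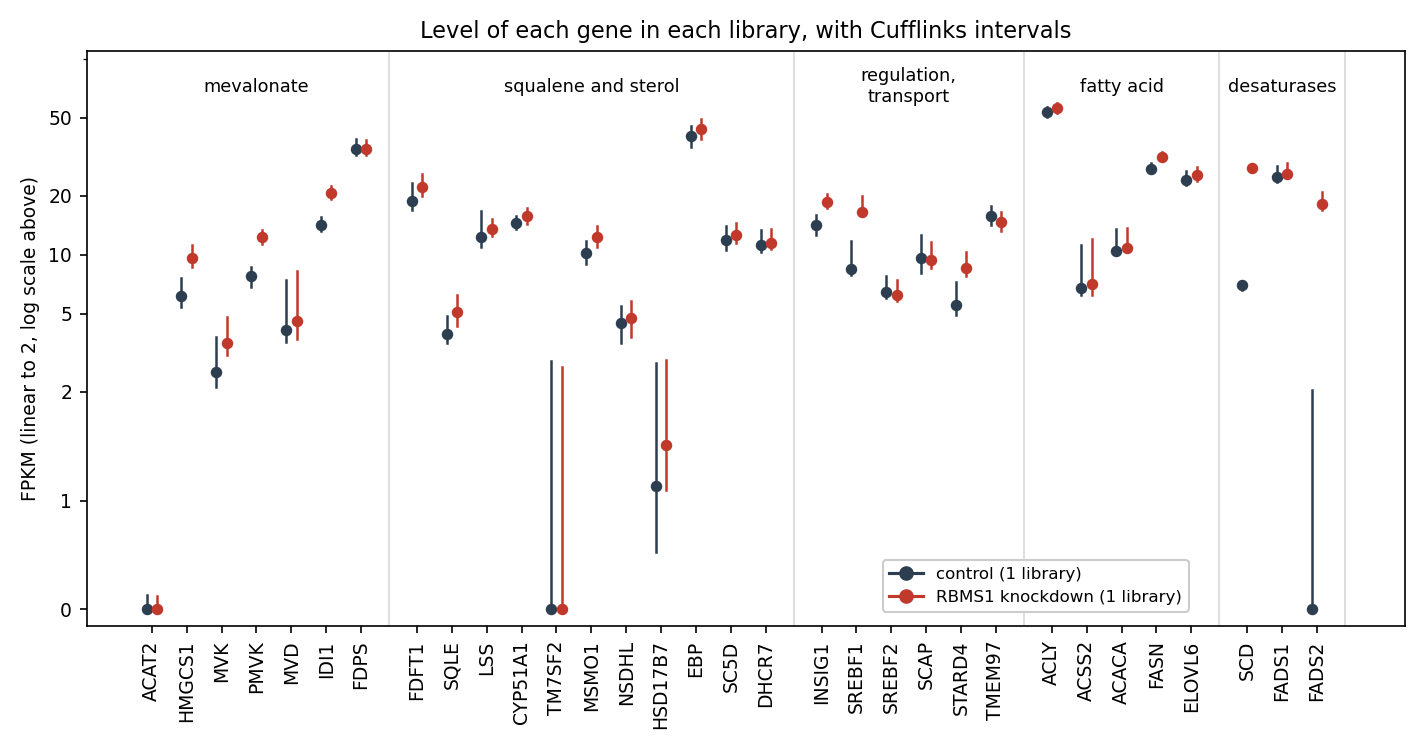
The level of each of the 32 genes in FPKM, on a scale that is linear up to 2 and logarithmic above, in the control library (dark) and the RBMS1 knockdown library (red), with the interval given within each library as a vertical line. Bars of the same gene are apart for 9 genes, among them SCD at 7.01 and 27.6 FPKM, and the bars of all other genes overlap.

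The promoter of each gene was looked at for the letters that these transcription factors are known to bind. The genes were not chosen on sequence, but they come from pathways known as SREBP targets. The motif shares below are therefore not independent of the choice of the genes. Windows from 250 bases before to 50 bases after the annotated start were available from RefSeq on GRCh38.p14 for 28 of the 32 genes, with none used for ACAT2, FDFT1, SQLE and FASN. The NF-Y box CCAAT, searched on both strands like the other motifs, was present for 22 of the 28 genes (78.6%), compared with 43.8% of 8298 genes with a mean level of at least 1 FPKM, 39.7% of all 27305 genes with a window and 34.6% of all 35116 windows. The GC box GGGCGG was present for 27 of the 28 genes (96.4%), against 78.8% of the expressed genes, 48.3% of all genes and 45% of all windows. On its other strand the NF-Y box reads ATTGG, which can share bases with a GC box. The sterol element TCACNCCAC was present for 1 of the 28 genes (3.57%), SREBF2, against 1.46% of the expressed genes, 1.39% of all genes and 1.13% of all windows. Only these exact letters were searched, so an element with other letters or outside the window would not be found. A gene with several annotated starts has several windows, and it was counted when any of them held the motif. The NF-Y box was found in 6 of the 8 members whose intervals lay apart and that had a window, and in 16 of the 20 others. The 8 include SCD, on which the list was selected, and FADS2, whose only match lies after the start. With so few genes, most of them holding the box, this split cannot show a separation, and nothing is read from it. The following stretches of 29 bases, read in the direction of the gene, show the nearest NF-Y box upstream of the start for the 5 members with intervals apart that have such a box, in the window whose RefSeq start lies nearest to that of the annotated transcript with the highest level. The box is in capitals (ATTGG is CCAAT on the other strand), and so is the sterol element of SREBF2.
HMGCS1: ctaccggccgcgATTGGctgtgggagcca
IDI1: atcgaaagcgtgATTGGctggcggcgtct
INSIG1: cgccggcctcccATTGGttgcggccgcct
STARD4: ctcccgcgccagCCAATccgaacaagcgc
SCD: aattcccttcggCCAATgacgagccggag
SREBF2: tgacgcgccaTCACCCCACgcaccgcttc

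These stretches lie at chr5:43313496-43313524 on the minus strand for HMGCS1, chr10:1049220-1049248 on the minus strand for IDI1, and chr7:155297696-155297724 on the plus strand for INSIG1. For STARD4 the stretch is chr5:111512649-111512677 on the minus strand, for SCD chr10:100347035-100347063 on the plus strand, and for SREBF2 chr22:41832962-41832990 on the plus strand. The box begins 100 bases before the RefSeq start in HMGCS1, 117 in IDI1, 170 in INSIG1, 130 in STARD4 and 186 in SCD, and the sterol element of SREBF2 begins 133 bases before its start. The annotated transcript with the highest level starts elsewhere for most of these genes, and the box lies 19 bases before that start in HMGCS1, 66 in IDI1, 68 in INSIG1, 155 in STARD4 and 77 in SCD. In HMGCS1 the box lies at the first bases of the second transcript, ENST00000433297. PMVK and SREBF1, whose intervals also lay apart, had no CCAAT in the window, and the only match of FADS2 lay after the start. A match of letters is a description of the sequence, and binding was not measured here.

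**Figure D2:**
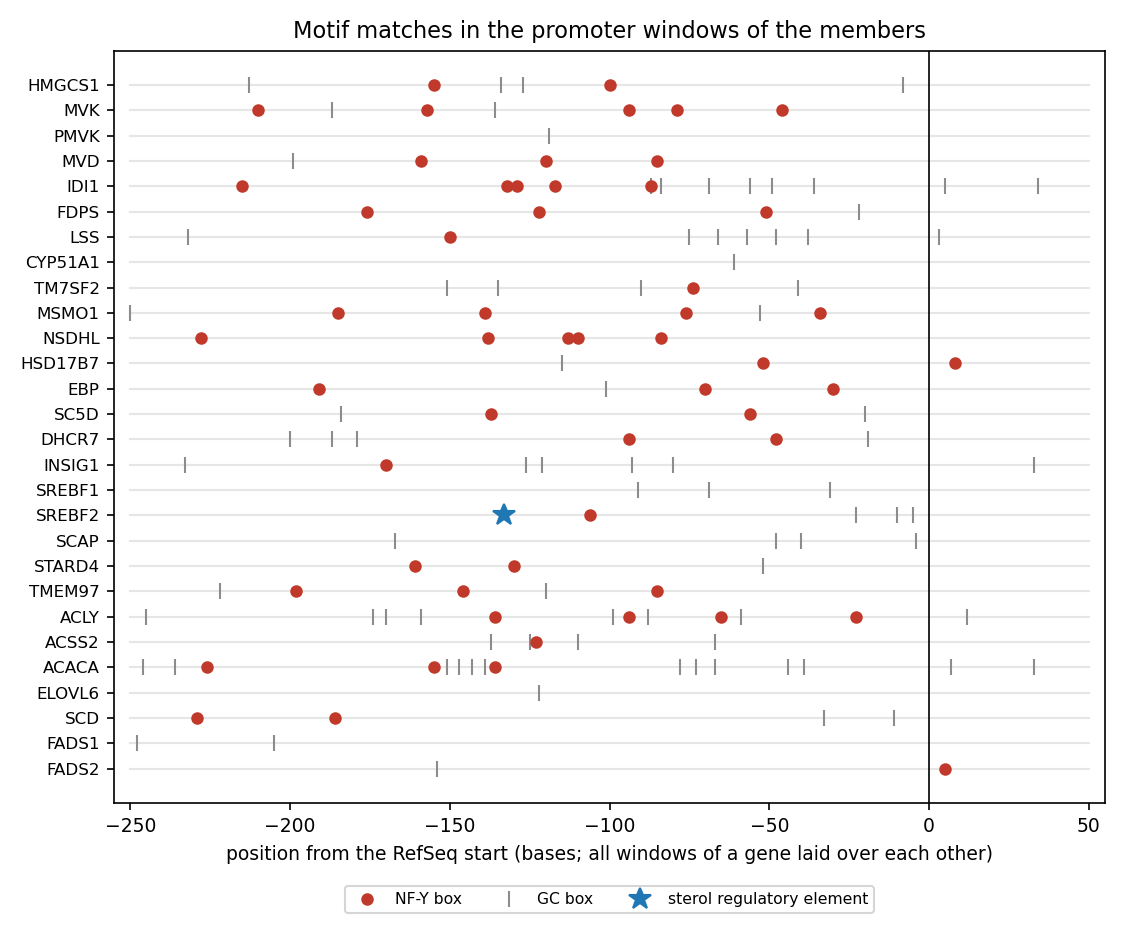
Matches of the NF-Y box (red dots), the GC box (grey ticks) and the sterol regulatory element (blue star) in the promoter windows of 28 members, with the position in bases from the RefSeq start on the horizontal axis and 1 line per gene. Red dots stand on 22 of the 28 lines, mostly upstream of the start, and the star stands only on the line of SREBF2.

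SCD, the stearoyl-CoA desaturase that places the first double bond in saturated fatty acids, had the largest ratio of the members above 0 in both libraries. Its level was 7.01 FPKM (6.64 to 7.38) in the control library and 27.6 FPKM (26.9 to 28.3) in the knockdown library, which is 394% of the control level, with a log2 ratio of 1.84. The knockdown library was thus far higher and the intervals lay far apart. From the largest increase down, SCD stood at rank 154 of the 11223 genes, while its control level lay at percentile 45.5 of them, near the middle of the range. SCD at chr10:100347124-100364834 on the plus strand has 1 transcript in GENCODE 29, ENST00000370355, with 6 exons and 5362 nt, and in both libraries no other transcript above 0 FPKM lay over its span on the same strand. Its pseudogene SCDP1 was listed at 0 in both libraries. The mean coverage of that transcript was 343 in the knockdown and 79.6 in the control library, so neither value lay near the floor of detection.

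The other desaturases did not share one pattern. FADS1, which makes the delta-5 step of polyunsaturated fatty acids, stood at 25.9 FPKM (24.6 to 29.4) in the knockdown and 24.8 FPKM (23.6 to 28.5) in the control library, with overlapping intervals and a log2 ratio of 0.06. FADS2, which makes the delta-6 step before it, had 18.1 FPKM (17.0 to 21.0) in the knockdown library and was listed at 0 in the control library, with an upper bound of 2.03 FPKM. All of the FADS2 level came from ENST00000257261 at chr11:61816256-61867354, and no fold is given because an exact 0 can be a failed estimate. This transcript overlaps by 907 nt the span of the FADS1 transcript on the opposite strand, and without a stated strand the reads of such neighbours can be divided between them. The part of this overlap in the FADS2 values was not tested. Outside the 32 genes, the further desaturase genes that were looked at, SCD5 and FADS3, were lower in the knockdown library with intervals apart. They were named after their values were seen, and the rest of the desaturase genes were not looked at. SCD5 was at 3.44 FPKM against 4.87 FPKM in the control library (log2 ratio -0.40), and FADS3 was at 14.9 FPKM against 23.6 FPKM (-0.64).

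Among the fatty acid synthesis and elongation genes, all 5 had a higher value in the knockdown library, with a median log2 ratio of 0.07, and the intervals of 1 lay apart, beside 52.7% higher and 13.2% apart with a higher level over all genes. That gene was FASN, the fatty acid synthase at chr17:82078333-82098332 on the minus strand. Its level was 27.4 FPKM (26.1 to 29.2) in the control and 31.5 FPKM (30.1 to 33.5) in the knockdown library, which is 115% of the control level. ACLY, the ATP citrate lyase, had the highest level of all 32 genes in both libraries, with 55.8 FPKM in the knockdown and 53.3 FPKM in the control library (log2 ratio 0.07). ACACA, the acetyl-CoA carboxylase, was at 10.9 and 10.5 FPKM (0.05), and single-exon fragments within its span that were not counted summed to 11.02 FPKM in the knockdown and 23.6 FPKM in the control library. ELOVL6, which elongates palmitate to stearate and so makes the substrate of SCD, was at 25.4 and 24.2 FPKM (0.07). ACSS2, which makes acetyl-CoA from acetate, was at 7.09 and 6.80 FPKM (0.05), with 1 such fragment at 1.61 FPKM in the control library. For these 4 genes the intervals overlapped, and the ratios were between 0.05 and 0.07. With the fragments added, ACACA and ACSS2 had the lower value in the knockdown library, and 3 of the 5 genes remained higher. Over the 8 genes of the fatty acid branch with the desaturases, all 8 had a higher value and the intervals of 3 lay apart, beside the same shares of 52.7% and 13.2%, and of these 3 genes SCD is the one on which the list was selected and FADS2 passed the filter only through its level in the knockdown library. Of the 7 genes above 0 in both libraries all 7 had a higher value, the intervals of SCD and FASN lay apart, and the median was 0.07.

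In the sterol branch, which holds the mevalonate pathway and the squalene and sterol steps, 16 of 18 genes entered the counts. Of these 15 were higher in the knockdown library, 3 had intervals apart and none was 2-fold different, and their median log2 ratio was 0.17. Over all genes 52.7% were higher, 13.2% lay apart with a higher level and 2.92% were 2-fold higher, so the 3 of 16 apart were near the share of all genes. All 3 were genes of the mevalonate pathway, where 5 of 6 genes were higher and the median was 0.44.

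**Figure D3:**
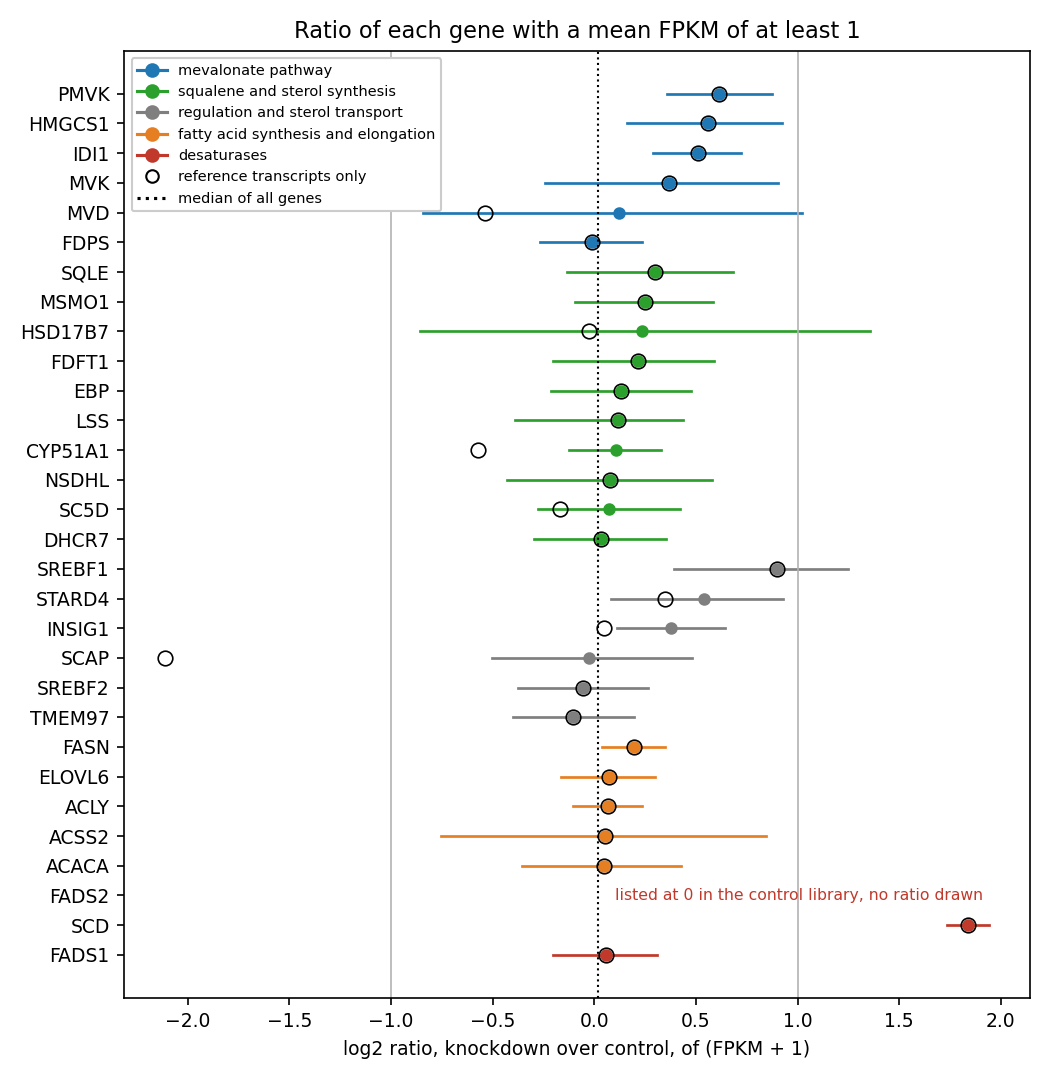
The log2 ratio of knockdown over control for each gene with a mean level of at least 1 FPKM, ordered by role, with lines that run from the lowest to the highest ratio the within-library intervals allow. Open circles give the ratio from reference transcripts alone, the dotted line is the median of all genes at 0.02, and the lines of PMVK, HMGCS1, IDI1, SREBF1, STARD4, INSIG1, FASN and SCD lie wholly to the right of 0. For FADS2, listed at 0 in the control library, no ratio is drawn.

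PMVK, phosphomevalonate kinase, had the largest ratio of the sterol branch. Its level was 7.75 FPKM (6.88 to 8.62) in the control and 12.4 FPKM (11.3 to 13.4) in the knockdown library, which is 160% of the control level (log2 ratio 0.61), and it came from its single GENCODE transcript at chr1:154924734-154936991. HMGCS1, the HMG-CoA synthase that makes the precursor of mevalonate, was at 6.19 FPKM (5.42 to 7.63) in the control and 9.59 FPKM (8.64 to 11.2) in the knockdown library, which is 155% of the control level (0.56). Both of its transcripts were higher in the knockdown library, ENST00000325110 at 6.87 against 4.48 FPKM and ENST00000433297 at 2.71 against 1.71 FPKM, so that the share of the first was 71.7% and 72.4% of the gene. IDI1, the isopentenyl diphosphate isomerase, was at 14.2 FPKM (13.1 to 15.6) in the control and 20.6 FPKM (19.3 to 22.3) in the knockdown library, which is 146% of the control level (0.51). These genes were higher in the knockdown library by more than the within-library uncertainty.

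The remaining genes of the mevalonate pathway had overlapping intervals. MVK, mevalonate kinase, stood at 3.54 FPKM (3.08 to 4.84) in the knockdown and 2.52 FPKM (2.12 to 3.82) in the control library, a log2 ratio of 0.37. These intervals are sums over 17 annotated transcripts. The only MVK transcript above 0, ENST00000228510, had bounds that lay apart, 3.08 to 4.001 FPKM in the knockdown and 2.12 to 2.92 FPKM in the control library. FDPS, the farnesyl diphosphate synthase at the end of the pathway, was at 34.5 and 34.8 FPKM (-0.01) and was the only gene of the sterol branch with a lower value, and of its copies FDPSP7 was at 1.16 FPKM in the knockdown and 1.41 FPKM in the control library. MVD, mevalonate diphosphate decarboxylase, was at 4.58 FPKM (3.71 to 8.31) and 4.13 FPKM (3.59 to 7.46), a ratio of 0.12. The MVD value came from different transcripts in each library: in the control library all of it was ENST00000620002, an identifier absent from GENCODE 29 that shares 9 introns with MVD, while in the knockdown library ENST00000301012 gave 2.54 FPKM and an assembled transcript 2.04 FPKM. ACAT2, the cytosolic acetyl-CoA acetyltransferase at the head of the pathway, was listed at 0 in both libraries, with upper bounds of 0.123 FPKM in the knockdown and 0.134 FPKM in the control library. ACAT2 overlaps by 558 nt with TCP1, a chaperonin gene on the opposite strand that was at 82.9 and 47.2 FPKM, and whether its listing at 0 is a failed estimate was not tested.

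Of the 11 genes for squalene and sterol synthesis, the 10 that entered the counts all had a higher value in the knockdown library, but all 10 had overlapping intervals and the ratios were small, from 0.03 to 0.30 with a median of 0.12. With reference transcripts alone 7 of the 10 had a higher value, and with uncounted single-exon fragments within the spans added, 8 of the 10 did, as LSS (2.56 FPKM of fragments) and HSD17B7 (1.25 FPKM) had such fragments only in the control library. SQLE, the squalene epoxidase, had the largest ratio, with 5.09 FPKM (4.35 to 6.26) in the knockdown and 3.94 FPKM (3.53 to 4.86) in the control library (0.30). MSMO1, a sterol C4 methyl oxidase, was at 12.3 and 10.2 FPKM (0.25), and FDFT1, the squalene synthase, was at 22.1 and 18.9 FPKM (0.22). HSD17B7, a sterol ketoreductase, was the lowest of the 10 with 1.51 FPKM (1.101 to 2.92) and 1.13 FPKM (0.529 to 2.81), a ratio of 0.24, and its near copy HSD17B7P2 was at 0.754 and 0.524 FPKM, so that its reads are uncertain. The other genes differed by less still. EBP, the sterol isomerase, was at 44.1 and 40.2 FPKM (0.13) and had the highest level of the 10, LSS, the lanosterol synthase, was at 13.5 and 12.4 FPKM (0.12), and CYP51A1, the lanosterol demethylase, was at 15.7 and 14.5 FPKM (0.11). NSDHL, a sterol dehydrogenase, was at 4.78 and 4.48 FPKM (0.08), SC5D, a sterol desaturase, was at 12.6 and 11.9 FPKM (0.07), and DHCR7, which reduces the last double bond on one route to cholesterol, was at 11.5 and 11.2 FPKM (0.03). TM7SF2, a sterol reductase, was listed at 0 in both libraries with upper bounds of 2.67 and 2.87 FPKM, and overlaps VPS51 at 8.11 and 7.65 FPKM by 16 nt.

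Among the 6 genes for regulation and sterol transport, 3 were higher with intervals apart and 3 had a slightly lower value with overlapping intervals. Over all genes 52.7% were higher and 13.2% lay apart with a higher level. SREBF1, which encodes SREBP1, the SREBP known for fatty acid synthesis, had the largest ratio of the 6. It stood at 8.44 FPKM (7.86 to 11.7) in the control and 16.6 FPKM (15.7 to 20.04) in the knockdown library, which is 197% of the control level, with a log2 ratio of 0.90. The level was clearly higher in the knockdown library, and in both libraries all of it came from ENST00000261646 at chr17:17812073-17837002 on the minus strand, although GENCODE lists 23 transcripts for the gene. Within its span lay 1 uncounted single-exon fragment in each library, at 4.77 FPKM in the knockdown and 6.17 FPKM in the control library. SREBF2, which encodes SREBP2, the SREBP known for sterol synthesis, was at 6.21 FPKM (5.79 to 7.44) in the knockdown and 6.48 FPKM (6.03 to 7.79) in the control library (-0.05), with overlapping intervals. Uncounted fragments within the SREBF2 span summed to 5.02 FPKM in the knockdown library and there were none in the control library, and with fragments added the ratio was 0.52 for SREBF1 and 0.71 for SREBF2. The difference between the 2 genes thus held only for the spliced transcripts that were counted.

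INSIG1, which holds SREBPs in the endoplasmic reticulum and is itself a known SREBP target, was at 14.2 FPKM (12.7 to 16.0) in the control and 18.7 FPKM (17.4 to 20.3) in the knockdown library, which is 132% of the control level (0.38). Its full-length transcript ENST00000340368 was at 14.7 FPKM in the knockdown and 10.2 FPKM in the control library. The remainder was an assembled transcript of 2 exons at 3.99 FPKM in the knockdown library and ENST00000476756 at 4.01 FPKM in the control library, so that with reference transcripts alone the ratio of the gene was 0.05. STARD4, which carries cholesterol between membranes, was at 5.57 FPKM (4.94 to 7.28) in the control and 8.54 FPKM (7.76 to 10.3) in the knockdown library, which is 153% of the control level (0.54). In both libraries most of STARD4 was the same assembled structure of 6 exons that starts 80 nt upstream of the reference start, at 5.83 FPKM in the knockdown and 3.65 FPKM in the control library, and the reference transcript ENST00000296632 was at 2.71 and 1.92 FPKM. Both structures of STARD4 were therefore higher in the knockdown library. SCAP, the escort of SREBPs, was at 9.40 FPKM (8.55 to 11.6) and 9.58 FPKM (8.06 to 12.5) (-0.02), and TMEM97, the sigma-2 receptor that is also a known sterol-responsive gene, was at 14.6 and 15.8 FPKM (-0.10), the lowest ratio of all members.

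Assembled transcripts had been given to 7 of the 32 genes, MVD, CYP51A1, HSD17B7, SC5D, INSIG1, SCAP and STARD4, and for these genes the choice to count them mattered. With them, 6 of the 7 were higher and the median was 0.12, and with reference transcripts alone 2 of the 7 were higher and the median was -0.17. CYP51A1 is the clearest example, since an assembled transcript that starts 273 nt upstream of the reference start held 6.29 FPKM in the knockdown library, while ENST00000003100 was at 9.44 FPKM there and at 14.5 FPKM in the control library, and its ratio without the assembled transcript was -0.57. For SCAP the reference transcripts were listed at 0 in the knockdown library while the control library had 3.32 FPKM, although the gene as a whole had almost the same level in both. The 23 counted genes with no assembled transcript do not depend on that choice, and of these 20 were higher, 7 had intervals apart and the median was 0.13. Over all genes 52.7% were higher and 13.2% lay apart with a higher level. The 7 include SCD, on which the list was selected, and FADS2, which passed the filter only through the knockdown library. Isoforms divided a similar gene level differently between the libraries for LSS too, where ENST00000457828 was at 10.7 FPKM in the knockdown and 6.07 FPKM in the control library, and ENST00000522411 was at 3.77 FPKM in the control library and listed at 0 in the knockdown library.

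Beside the counted transcripts, 9 of the 32 genes had assembled fragments within their span that share no intron with them and were given to no gene. All 38 of these fragments had 1 exon, and 1 of them, in HSD17B7, overlapped an exon of a counted transcript, while the others lay outside the counted exons. With them added, 24 of the 30 counted members were higher and the median was 0.14, and LSS, HSD17B7, SREBF2, SCAP, ACSS2 and ACACA changed sign. PMVK, IDI1, INSIG1, FASN, SCD and FADS2, all with intervals apart, had no such fragment, and HMGCS1 and STARD4 had more of it in the knockdown library, with 4.43 against 2.602 FPKM and 5.013 against 0.921 FPKM. SREBF1, the remaining gene with intervals apart, had less of it in the knockdown library, with 4.77 against 6.17 FPKM, and its ratio of 0.90 became 0.52.

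The division among isoforms was similar in both libraries for several other genes. FDFT1 held ENST00000220584 at 13.1 FPKM in the knockdown and 10.9 FPKM in the control library, and ENST00000443614 at 8.97 and 7.95 FPKM. MSMO1 held ENST00000261507 at 9.44 and 7.59 FPKM and ENST00000393766 at 2.87 and 2.62 FPKM. EBP held ENST00000276096 at 25.1 and 22.8 FPKM and ENST00000414061 at 16.8 and 15.2 FPKM. In these 3 genes both transcripts had a higher value in the knockdown library, as in HMGCS1. ACLY held ENST00000352035 at 46.3 and 44.6 FPKM and ENST00000590151 at 9.48 and 8.71 FPKM, and ELOVL6 held ENST00000302274 at 19.5 and 18.5 FPKM and ENST00000394607 at 5.998 and 5.66 FPKM. Transcripts of other genes differed in direction. NSDHL held ENST00000440023 at 2.42 FPKM in the knockdown and 2.99 FPKM in the control library, and ENST00000370274 at 2.35 and 1.49 FPKM. TMEM97 held ENST00000226230 at 8.54 and 7.99 FPKM and ENST00000336687 at 6.09 and 7.79 FPKM. SC5D held ENST00000392789 at 10.5 and 8.44 FPKM, with ENST00000264027 at 3.43 FPKM in the control library and an assembled transcript at 2.09 FPKM in the knockdown library in its place.

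**Figure D4:**
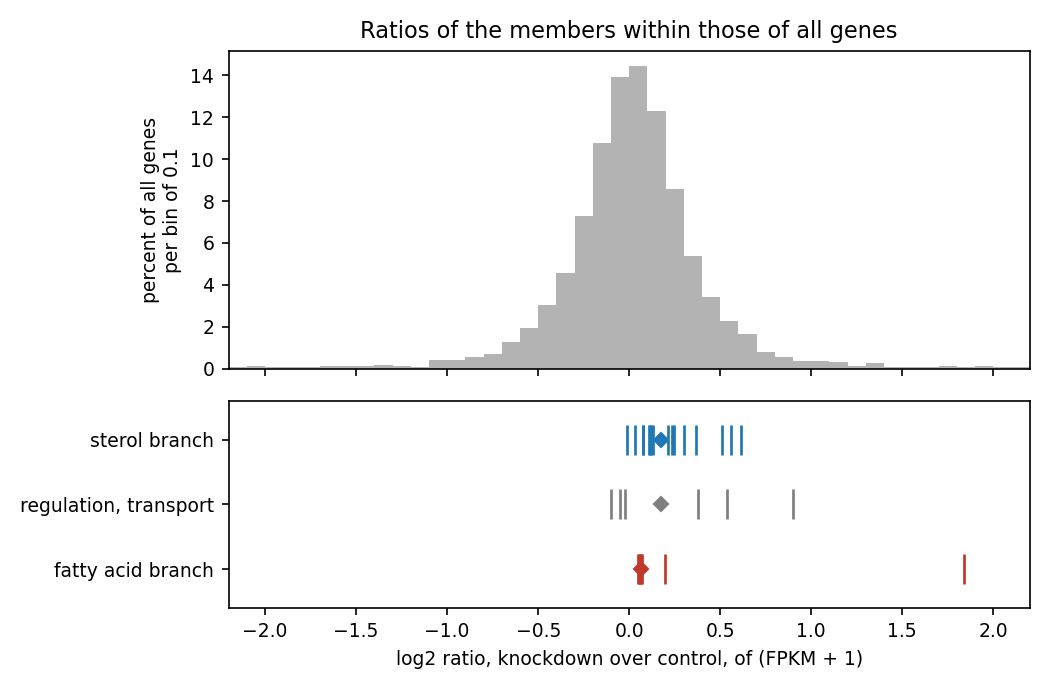
Above, the share of all 11223 genes per bin of 0.1 in the log2 ratio of knockdown over control. Below, 1 tick for each member above 0 in both libraries, with the median of each branch as a diamond; the axis ends at 2.2 on both sides. Nearly all ticks lie within the central hump of all genes, shifted a little to the right, with SCD at 1.84 far outside it.

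The rest of lipid metabolism was looked at with a list of 81 further genes, written with the results on the 32 genes known, of which 75 entered the counts. In that list 47 genes were higher and 28 were lower, the intervals of 17 lay apart with a higher and of 14 with a lower level, and the median log2 ratio was 0.14. Both counts of intervals apart stand beside the shares of 13.2% higher and 11.3% lower over all genes. The median of this list was not below the 0.12 of the 32 genes. The counts differed, as 26 of the 30 counted members were higher (52.7% over all genes) and 9 had intervals apart, all of them higher. Both lists were written with earlier results known, so nothing is read from this comparison. The genes with the largest change on each side, among those above 0 in both libraries, were ACSS1 and PLIN2. ACSS1, the mitochondrial acetyl-CoA synthetase, was at 1.08 FPKM (0.838 to 1.39) in the control and 4.36 FPKM (3.70 to 5.10) in the knockdown library (1.36). PLIN2, which coats lipid droplets, was at 43.5 FPKM (41.1 to 46.6) in the control and 15.6 FPKM (14.1 to 17.8) in the knockdown library (-1.42). Of the 8 genes for SREBP processing, 5 were higher and 3 lower, with a median of 0.13 and intervals apart for 1, MBTPS2, the site-2 protease that releases the active SREBP, at 11.2 FPKM in the knockdown and 8.66 FPKM in the control library (0.33).

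The groups of this list are small, and their counts stand beside the 52.7% of all genes that were higher. The 9 genes that supply acetyl-CoA, citrate and NADPH were mostly higher, 7 against 2, with intervals apart for 5 higher genes and 1 lower gene and a median of 0.21. The lower gene was ACO1, named after its value was seen, whose ratio was -0.26 and with reference transcripts alone 0.32. Fatty acid oxidation was divided, with 3 of 7 genes higher and 4 lower and a median of -0.07, and so were the other elongases and desaturases, with 4 of 9 higher and 5 lower and a median of -0.0012. Of 5 counted genes for cholesterol efflux and the LXR receptors all 5 were higher with a median of 0.25, 1 of them, RXRB, being listed at 0 in the control library. Of 10 isoprenoid genes 7 were higher, of 7 genes for cholesterol storage and movement 5 were higher, of 10 genes for glycerolipid and phospholipid synthesis 7 were higher (6 of the 8 above 0 in both libraries, without PCYT2, listed at 0 in the control library, and DGAT1, listed at 0 in the knockdown library), of 6 lipid droplet and lipolysis genes 3 were higher, and of 4 acyl-CoA synthetases 1 was higher. The medians of these 5 groups were 0.13, 0.19, 0.11, -0.31 and -0.11.

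**Figure D5:**
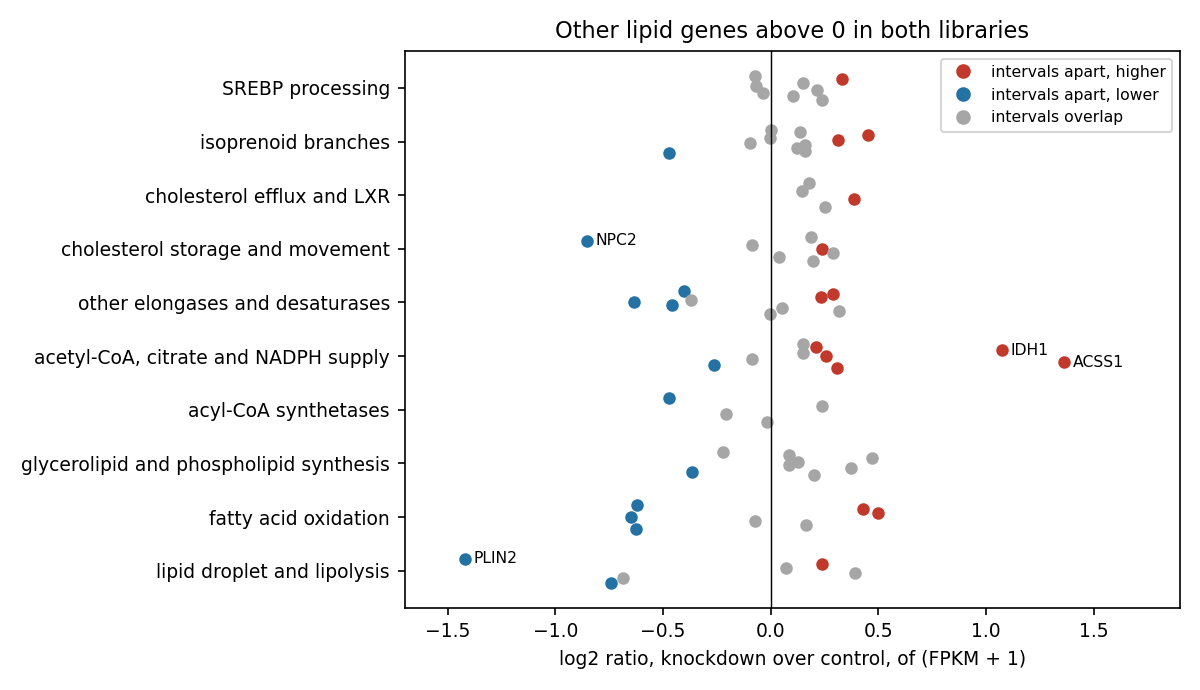
The log2 ratio of knockdown over control for genes of the wider lipid list with a mean level of at least 1 FPKM and above 0 in both libraries, 1 line per group, in red or blue where the within-library intervals lay apart and in grey where they overlapped. Red and blue points occur side by side in most groups, and PLIN2 at -1.42 and ACSS1 at 1.36 are the outermost points.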

How the data were processed

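RNA-seq had been carried out on 1 library of RBMS1 knockdown and 1 library of control MDA-MB-231 cells. The authors deposited, for each library, transcripts with their FPKM, its interval and the coverage as Cufflinks writes them. The submitters' processing notes name Bowtie2 2.0.6, TopHat2 2.0.9, Cufflinks 2.1.1 and Cuffdiff 2.1.1, while the annotation, genome build and strand of the libraries are not given in the sources used here. Reference transcripts were joined to GENCODE 29 on GRCh38 by identifier, and the annotated start position was met by 98.1% of them. Assembled transcripts (60329 in the knockdown and 64210 in the control library) and Ensembl identifiers that are absent from GENCODE 29 (2245 and 2244) were given to the gene on the same strand with the most shared introns, at least 1, which placed 6507 and 6583 of the former and 1606 of the latter in each library. The step for absent identifiers was chosen after the MVD values were seen. Transcripts given to no gene held 70.7% and 71.6% of the summed FPKM and were not used here.

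The FPKM and the interval bounds of a gene are sums over its transcripts. Ratios are log2 of FPKM plus 1, genes entered the counts at a mean of at least 1 FPKM, and a 2-fold difference is a log2 ratio no closer to 0 than 1 or -1. The files hold no read counts, so the depth is unknown, and the median coverage per FPKM was 12.3 in the knockdown and 11.3 in the control library. With 1 library per group no p-value was computed. The members and lists were chosen with earlier results of these data known. Named by rule are all 32 members, RBMS1 and the wider lipid gene with the largest change on each side. Transcripts named hold at least 10% of their gene in a library, and not all such transcripts are printed. The markers of the cell line, neighbouring genes and copies were looked up for the check they bear on, and MBTPS2, SCD5, FADS3, RXRB, ACO1, PCYT2 and DGAT1 were named after their values were seen. The table of the authors' own comparison (fold change, p-value and q-value) was not used. Scripts ran in Python 3.11.15 with pandas 2.3.3 and numpy 2.4.6 and were tested on simulated data, and the ratios of single members and of RBMS1, the medians of the sterol and fatty acid branches, and the counts of higher and 2-fold members and of higher genes in the wider lipid list were also computed with 10 other settings and with 3 more added after seeing the data.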

Additional observations from a re-analysis of the deposited data

How the results depend on the processing

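With 1 library per group no spread between replicates is known, and the intervals cover only the uncertainty within a library. No paired analysis was possible because neither group has a second library. The log2 ratio of SCD was 1.96 with 0.1 FPKM added and 1.44 with 5 FPKM added, and that of RBMS1 was -1.73 with 5 FPKM added, as larger pseudocounts shrink ratios by construction. With assembled fragments that share no intron added over the span of a gene, an alternative chosen after seeing the data, the RBMS1 ratio was -0.20, and the cause was not tested. The count of members at least 2-fold different was 4 when the reference transcript with the highest mean level stood for each gene (SCD and FADS2 higher, MVD and SCAP lower). It was 1 for genes above 0 in both libraries, also chosen after seeing the data, because FADS2 then drops out. Members with a higher value numbered between 21 and 26 under every alternative. The median ratio stayed between 0.10 and 0.23 for the sterol branch and between 0.04 and 0.07 for the fatty acid branch. Of 384 values of single members recomputed, 368 stayed inside the range their within-library intervals allow, and 18 changed sign, in 11 members (ACACA, ACSS2, CYP51A1, HSD17B7, LSS, MVD, NSDHL, SC5D, SCAP, SREBF2 and TMEM97), all when transcripts were left out or fragments added. Many of the 384 values could not change. Settings that only filter genes leave a ratio as it is, and settings that leave transcripts out do not touch genes without such transcripts. The 368 are therefore no measure of robustness. For MVD the ratio was 2.48 with identifiers absent from GENCODE 29 left out and -2.36 with the single highest reference transcript.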
